A study of Mus musculus with 24 samples.

Results

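Cnnm2, Cnnm3 and Cnnm4 encode cyclin M proteins, a family of membrane proteins that take part in magnesium transport, and the values described here are their transcript levels in brain endothelial cells. The 3 genes were selected on these data, by their listed symbol, because Cnnm2 was higher in mutants than in controls at all 6 time points, and they are 3 of 53465 genes listed. All 3 passed the expression filter, which a gene passed when it reached 5 normalized reads in 6 libraries of either genotype, as 15493 genes did. Since that contrast chose the genes, their genotype difference is given as a description, with no test.

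Endothelial cells were sorted with an antibody to CD31 from the brains of C57BL/6J mice, 1 library for each mouse. Controls were Bmal1fl/fl mice, in which both copies of the clock gene Bmal1 (listed as Arntl) carry loxP sites but no Cre is present. Mutants were Bmal1fl/fl; Tie2cre mice, in which Cre is driven by the Tie2 promoter, which is active in endothelium and in part of the blood lineage. Mice of both sexes, of an age not given in the sources used here, were kept in a light:dark cycle and brains were taken every 4 h from ZT2 to ZT22 (hours after lights on), from a pair of mice of each genotype at every time point, so that each genotype had 12 libraries. Values are normalized reads per gene, whole numbers after the authors' normalization, and their totals, which no longer show the original depth, were 6144892 to 6648311 in controls and 6136404 to 6577585 in mutants.

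Cyclin M proteins sit in the plasma membrane and carry a cytosolic domain that binds magnesium-ATP, and whether they carry magnesium out of the cell themselves or act on other transporters is debated. CNNM2 is known from the distal kidney tubule, where loss-of-function variants lead to low blood magnesium, and CNNM4 from the basolateral side of the gut epithelium. CNNM3 is widely expressed and is a partner of the PTP4A phosphatases, which bind the cytosolic part of the family. In the clock, BMAL1 with CLOCK drives genes through E-box elements, and its own transcription is set by ROR and REV-ERB receptors at RORE elements.

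In the GRCm38 mouse genome Cnnm2 (ENSMUSG00000064105) lies on chromosome 19 from 46761596 to 46880192, plus strand, between As3mt and Nt5c2. Cnnm4 (ENSMUSG00000037408, chromosome 1 from 36471620 to 36508764) and Cnnm3 (ENSMUSG00000001138, chromosome 1 from 36511867 to 36528237) are neighbours on the plus strand, 3103 bp apart. The 250 bases before the RefSeq start of each gene (GRCm38.p6, plus strand) are shown because BMAL1, the factor targeted in the mutants, binds E-boxes in promoters. Capitals mark the letters that matched a searched motif.
Cnnm2, chr19:46761359-46761608: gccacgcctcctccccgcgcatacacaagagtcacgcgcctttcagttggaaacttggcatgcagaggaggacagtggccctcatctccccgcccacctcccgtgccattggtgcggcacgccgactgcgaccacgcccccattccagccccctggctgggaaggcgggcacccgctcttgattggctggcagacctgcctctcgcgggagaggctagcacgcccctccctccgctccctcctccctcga
Cnnm3, chr1:36511617-36511866: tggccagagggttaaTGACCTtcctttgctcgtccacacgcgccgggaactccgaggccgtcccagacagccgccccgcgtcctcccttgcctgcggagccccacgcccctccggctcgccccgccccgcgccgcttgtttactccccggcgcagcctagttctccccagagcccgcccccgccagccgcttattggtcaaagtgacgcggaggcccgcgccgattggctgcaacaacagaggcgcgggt
Cnnm4, chr1:36471347-36471596: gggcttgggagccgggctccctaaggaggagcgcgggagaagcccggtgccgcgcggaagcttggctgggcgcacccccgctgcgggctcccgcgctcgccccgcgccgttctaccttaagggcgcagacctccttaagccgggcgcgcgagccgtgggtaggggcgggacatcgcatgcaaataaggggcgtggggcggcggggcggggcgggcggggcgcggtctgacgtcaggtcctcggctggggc

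These windows were searched on both strands for the E-box CACGTG, the related CACGTT, the RORE core AGGTCA and the D-box TTATGTAA, which do not contain one another. The only match among the 3 was a RORE core on the minus strand of Cnnm3, read as TGACCT on the plus strand and beginning 235 bases before the start. Of all 32851 promoter windows of that length, 14.0% hold this core, 6.02% the E-box, 3.85% CACGTT and 0.819% the D-box. The windows of Cnnm2, Cnnm3 and Cnnm4 were 68.0%, 70.4% and 75.6% G and C, where the median of all windows was 52.4%. A window without a match says only that these letters are not in it.

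Some libraries stood apart in ways that touch the values below. In the library labelled mutant, ZT6, replicate 1, the clock gene Per3 had 277 reads against 36 to 136 in the other 11 mutants and Arntl had 81 against 120 to 354, and in the library labelled control, ZT18, replicate 2, Per3 had 60 reads against 112 to 856 in the other 11 controls. Arntl in the latter had 261 reads, near the 267 of the other control of ZT18. The mutants of ZT18 had 286 and 231, so Arntl does not tell the genotypes apart at that time point. At ZT6 the controls had 99 and 57 Arntl reads. Whether either genotype label is wrong was not tested. These libraries were singled out after their values were seen and were kept under their labels. Some values that rest on them are also given without them. The log2 fold changes of single time points, and of ZT6 with ZT18, are given only with them. The Arntl value counts the whole gene, not the floxed exon alone, and does not check the deletion. It ran from 1 to 468 reads in controls and from 81 to 354 in mutants. The summed level of 8 endothelial markers was 11022 to 18023 CPM (counts scaled to a common library total) in controls and 12311 to 18437 in mutants, and that of the 31 markers of other cell types (neurons, glia, mural and red blood cells) 3344 to 6726 and 3597 to 6778. By cell type, median sums in controls and mutants were 622 and 491 CPM for astrocytes and 733 and 655 for oligodendrocytes. For red blood cells they were 664 and 547, and for microglia 1092 and 1436. For neurons they were 51.3 and 59.0, and for mural cells 2089 and 2061. The 8 libraries of ZT6 and ZT18 had consecutive library numbers, and had 76.3 to 140 CPM of 5 microglial markers against 857 to 2456 in the other 16. Mitochondrial transcripts took 2.68% to 3.90% of their reads against 5.78% to 17.4%. With the mitochondrial share as a covariate the log2 fold changes of mutant against control, described below, were 0.76 for Cnnm2, 0.10 for Cnnm3 and 0.34 for Cnnm4, and with the other cell markers 0.81, 0.19 and 0.24.

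Cnnm2 was higher in mutants than in controls at all 6 time points. At the 6 time points in order the pairs of control mice had 250 and 330 reads at ZT2, then 175 and 274, then 217 and 108, then 144 and 83, then 220 and 376, and at ZT22 279 and 245. The pairs of mutant mice had 420 and 334 reads at ZT2, then 184 and 541, then 320 and 306, then 355 and 513, then 406 and 420, and at ZT22 450 and 445. Both mutants lay above both controls at 5 of 6 time points, and at ZT6 the groups overlapped because the library labelled mutant, ZT6, replicate 1 fell within the range of the controls. The mean was 225 ± 87.0 reads in controls and 391 ± 97.9 in mutants (SD, n = 12 each). In such bulk samples, fewer cells of a type and less RNA per cell cannot be told apart. Of 12 mutants, 7 lay above the highest control, and of 12 controls, 4 lay below the lowest mutant. The libraries that stood apart held the lowest mutant value (184 reads) and the highest control value (376 reads), so leaving them out widens the difference by itself. Without both the means were 211 ± 76.4 and 410 ± 76.5 reads (SD, n = 11 each), and 9 of 11 mutants lay above the highest control. The remaining mutant of ZT6, with 541 reads, lay above both controls of that time point.

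The plot of reads by time point shows where the Cnnm2 groups came close. Control means were 290 reads at ZT2, 113.5 at ZT14 and 298 at ZT18, whereas the mutant means stayed between 313 and 447.5. The ZT18 control mean includes the library that stood apart, with 376 reads. The other control of ZT18 had 220 reads, against 406 and 420 in the mutants. The ratio of the mutant to the control mean was lowest at ZT2 (1.3) and highest at ZT14 (3.82). A mutant mean above the control mean at all 6 time points, the pattern that chose these genes, was found for 349 of 15493 genes (2.25%), and both mutants above both controls at 5 or more time points for 31 (0.200%).

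**Figure D1:**
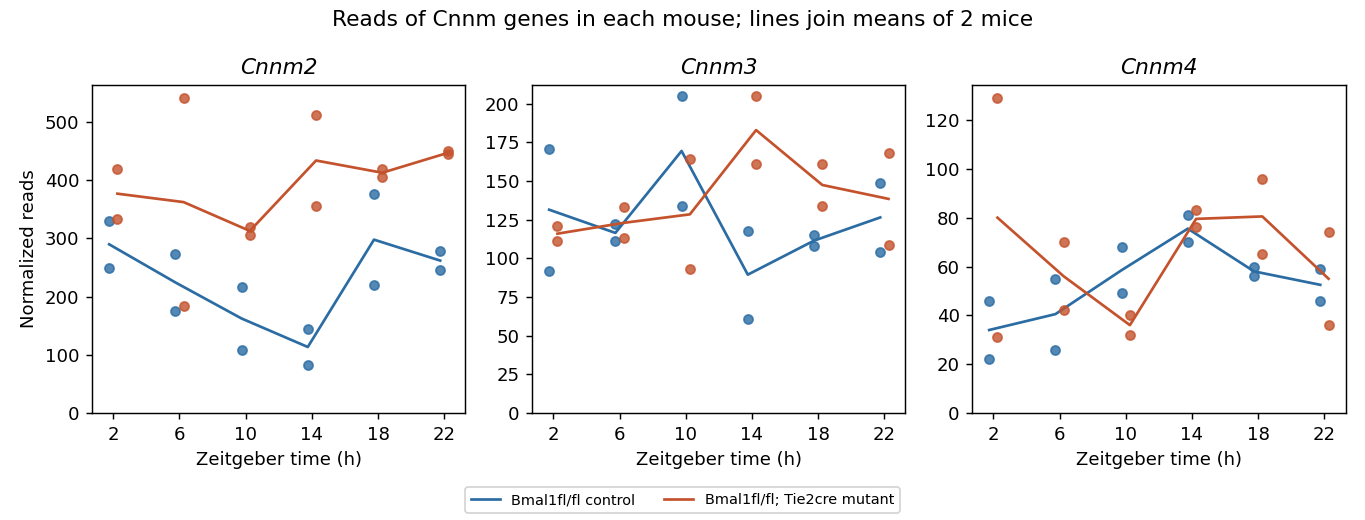
Normalized reads of Cnnm2, Cnnm3 and Cnnm4 (vertical axes, each from 0) against zeitgeber time in hours, with 1 point for each mouse and lines through the means of 2 mice. The Cnnm2 line of the mutants lies above that of the controls at 6 of 6 time points, and the lines of Cnnm3 and Cnnm4 cross.

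The Cnnm3 values of the genotypes overlapped. At the 6 time points in order the pairs of control mice had 171 and 92 reads at ZT2, then 122 and 111, then 205 and 134, then 61 and 118, then 108 and 115, and at ZT22 149 and 104. The pairs of mutant mice had 121 and 111 reads at ZT2, then 113 and 133, then 93 and 164, then 161 and 205, then 161 and 134, and at ZT22 168 and 109. The highest value of each genotype was 205 reads, and the groups overlapped at 4 of 6 time points, with both mutants above both controls at ZT14 and ZT18. The means were 124 ± 37.5 reads in controls and 139 ± 32.5 in mutants (SD, n = 12 each), and the mutant mean was the higher at 4 of 6 time points.

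Cnnm4 had the fewest reads of the 3. At the 6 time points in order the pairs of control mice had 22 and 46 reads at ZT2, then 55 and 26, then 68 and 49, then 81 and 70, then 60 and 56, and at ZT22 59 and 46. The pairs of mutant mice had 129 and 31 reads at ZT2, then 42 and 70, then 32 and 40, then 76 and 83, then 96 and 65, and at ZT22 36 and 74. Both mutants lay above both controls at ZT18 and below them at ZT10, and the groups overlapped at the other 4 time points. The means were 53.2 ± 17.1 reads in controls and 64.5 ± 29.9 in mutants (SD, n = 12 each), and a single mutant of ZT2, with 129 reads, was the highest.

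In an edgeR fit over all 15493 genes with the time point as a factor, the log2 fold change of mutant against control was 0.85 (SE 0.17) for Cnnm2, which is 1.80-fold, 0.17 (SE 0.17) for Cnnm3 and 0.27 (SE 0.26) for Cnnm4. Of all genes, 24 (0.155%) were higher and 18 (0.116%) lower in mutants at an adjusted p under 0.05. For Cnnm2 the log2 fold change was 0.60 (SE 0.24) within the 8 libraries of ZT6 and ZT18 and 0.98 (SE 0.19) within the other 16. Both libraries that stood apart were among those 8. Without them the Cnnm2 reads of ZT6 and ZT18 were 175, 274 and 220 in controls and 541, 406 and 420 in mutants. In the fit of all time points without both, the log2 fold change was 1.01 for Cnnm2, 0.17 for Cnnm3 and 0.27 for Cnnm4. They held the lowest mutant and the highest control value of Cnnm2, so leaving them out raises its value by itself. Within ZT6 and ZT18 and within the other 16 libraries, Cnnm4 had 0.49 (SE 0.41) and 0.14 (SE 0.34). Cnnm3 had 0.27 (SE 0.27) and 0.12 (SE 0.23). With the i5 index of the library barcode as a factor, which at ZT2 and ZT10 differs between the genotypes, the values were 0.94 (SE 0.21) for Cnnm2, 0.40 (SE 0.20) for Cnnm3 and 0.25 (SE 0.32) for Cnnm4. The Cnnm4 value was 0.05 without the mutant of ZT2 replicate 1, the library with 129 reads, and 0.15 without the control of ZT2 replicate 1. The Cnnm3 value was 0.08 without the control of ZT14 replicate 1 and 0.11 without the mutant of ZT14 replicate 2.

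By time point, the Cnnm2 log2 fold changes were 0.42, 0.71, 0.96, 1.83, 0.50 and 0.76 from ZT2 to ZT22, with SEs of 0.38 to 0.40. The ZT6 and ZT18 values each include a library that stood apart. The remaining mutant of ZT6 had 541 reads against 175 and 274 in the controls. The remaining control of ZT18 had 220 reads against 406 and 420 in the mutants. At ZT14 and ZT22 the libraries of both genotypes carried the same i5 index, and so they did at ZT6 and ZT18. At ZT14 other measures differed between the genotypes. Mitochondrial transcripts took 17.4% and 15.3% of the reads in the controls, the highest shares of all libraries, and 7.89% and 10.7% in the mutants, and the library numbers of the genotypes lay far apart. The part of these differences in the ZT14 values was not tested. For Cnnm3 the values ran from -0.39 at ZT10 to 0.93 at ZT14, with SEs of 0.40 to 0.41. For Cnnm4 they ran from -0.69 at ZT10 to 1.28 at ZT2, with SEs of 0.62 to 0.64. The plot of fold changes by time point shows that ZT14, when the Cnnm2 reads of the controls were lowest, held the highest value for Cnnm2 and for Cnnm3 but not for Cnnm4.

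**Figure D2:**
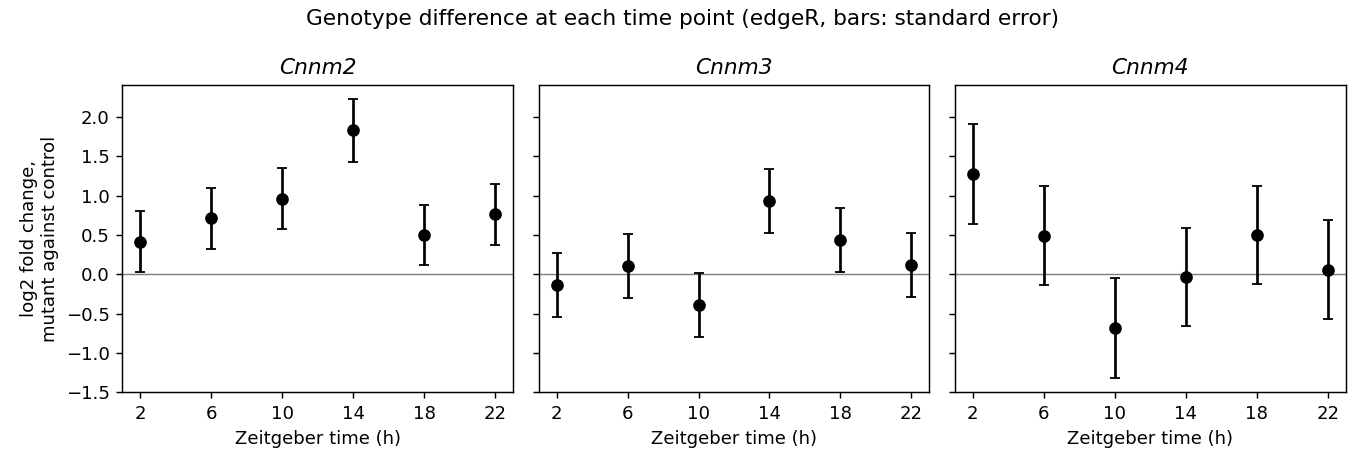
Log2 fold change of mutant against control (vertical axis) at each zeitgeber time in hours for Cnnm2, Cnnm3 and Cnnm4, from 1 edgeR fit with a group for each genotype and time point. Points are estimates and bars 1 standard error, and the values of Cnnm2 are above 0 at 6 of 6 time points. The values of ZT6 and ZT18 include the libraries that stood apart.

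When the 12 means of genotype and time point were put in order for each gene, the 6 mutant means of Cnnm2 came before the 6 control means, as for 16 of 15493 genes (0.103%). This order follows from the values that chose the gene. Neighbours in that order were nevertheless close, and the values of the 2 mice overlapped those of the next mean in 11 of 11 steps for Cnnm2, 11 of 11 for Cnnm3 and 10 of 11 for Cnnm4. The exception was the step from the controls of ZT14 to those of ZT10 in Cnnm4. For Cnnm2 some overlaps rest on the libraries that stood apart. With them the mutants of ZT6 spanned 184 to 541 reads and the controls of ZT18 220 to 376. The steps were not counted without those libraries. Over the 12 libraries of a genotype, time of day included, the coefficient of variation was 38.6% in controls and 25.0% in mutants for Cnnm2, 30.2% and 23.3% for Cnnm3, and 32.1% and 46.4% for Cnnm4. Beyond counting error, the edgeR fit with genotype and time point put it at 28.3%, 28.5% and 41.9%. Counting error at the mean read number would give 5.06% to 6.67%, 8.47% to 8.97% and 12.5% to 13.7%.

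Whether the genes cycled over 24 h was tested within each genotype with meta2d, which combines JTK_CYCLE, a rank test against a cosine, with a Lomb-Scargle periodogram. In controls Cnnm4 had an unadjusted meta2d p of 0.0118 and q = 1.00 over all genes. Its cosine peaked at ZT14.7, and the amplitude was 34.0% of the mean. An unadjusted p under 0.05 was found for 377 genes (2.43%) in controls and 351 (2.27%) in mutants. Without the control of ZT2 replicate 1, ZT14 replicate 1 or ZT14 replicate 2 the Cnnm4 p was 0.0599, 0.0603 or 0.0526, and an edgeR cosinor gave an unadjusted p of 0.0795. A cosinor with permuted time points gave p = 0.0148 and meta2d on values rescaled by TMM p = 0.00746. In mutants Cnnm4 had p = 1.00 and a relative amplitude of 19.5%.

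In controls Cnnm2 had a meta2d p of 0.150 and q = 1.00, and its cosine, with an amplitude of 35.8% of the mean, peaked at ZT23.4, at the end of the dark phase. A cosinor fit gave lower p-values, 0.0381 unadjusted in edgeR and 0.0409, also unadjusted, in a permutation of the time points. The share of all genes under 0.05 in those fits is not given here. Without the library labelled control, ZT18, replicate 2, singled out after its values were seen, the meta2d p was 0.0137. On values rescaled by TMM it was 0.217. In mutants the meta2d p of Cnnm2 was 0.969 and the relative amplitude 13.7%. Its highest mean of a time point was 2.63 times the lowest in controls and 1.43 times in mutants. Since the genotype difference at each time point chose the gene, the difference between these rhythms was not tested.

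Cnnm3 had a meta2d p of 1.00 in controls and 0.864 in mutants, with relative amplitudes of 12.8% and 19.1%. The difference in rhythm between the genotypes, tested in edgeR as the interaction of genotype with a 24-h cosine and sine, had an unadjusted p of 0.228 for Cnnm3 and 0.248 for Cnnm4, and an adjusted p of 1.00 for both. Over all genes 660 (4.26%) had an unadjusted p under 0.05 in that test and 0 an adjusted one.

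Divided by exon length (5167 bp for Cnnm2, 6420 bp for Cnnm3 and 4829 bp for Cnnm4), Cnnm2 had 43.6 ± 16.8 reads per kb in controls and 75.7 ± 18.9 in mutants, Cnnm3 19.3 ± 5.83 and 21.7 ± 5.07, and Cnnm4 11.0 ± 3.53 and 13.4 ± 6.20 (SD, n = 12 each). Cnnm3 was above Cnnm4 in 11 of 12 controls, with a mean log2 ratio per kb of 0.84 ± 0.80 (exact sign-flip permutation test, two-sided, p = 0.00439, adjusted over 2 tests p = 0.00439). It was above Cnnm4 in 11 of 12 mutants as well, with a ratio of 0.81 ± 0.66 (exact p = 0.00244, adjusted p = 0.00439). Cnnm2 was above Cnnm3 in 11 of 12 controls and 12 of 12 mutants, and above Cnnm4 in 12 of 12 of each. Cnnm1, the other member of the family and best known from neurons, was close to absent. It had 0 to 23 reads in controls, with 0 in 5 of 12, and 0 to 34 in mutants, with 0 in 2 of 12, and its means were 4.75 and 11.25 reads. It reached the 5 reads of the filter in 4 controls and 8 mutants, so that it passed only through the mutants. Its mutant mean was above the control mean at 6 of 6 time points, at levels near 0, from which no direction is read.

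In the study magnesium transport was the process examined downstream of the endothelial clock, and the Cnnm genes were set among 18 other magnesium channels and transporters, of which 15 passed the filter. In controls the highest levels per kb were those of Trpm7, a channel fused to a kinase (86.2 ± 12.0 reads per kb), Nipal3, of the NIPA transporter family (72.4 ± 10.6), Mrs2, the channel of the inner mitochondrial membrane (61.5 ± 11.3), and Slc41a1, a plasma membrane exchanger (46.1 ± 8.72). Cnnm2 followed at rank 6 of 19 in controls and stood at rank 3 in mutants, Cnnm3 at ranks 12 and 11, and Cnnm4 at rank 15 in both. In mutants Cnnm2, with 75.7 reads per kb, stood between Nipal3 (82.1 ± 14.5) and Trpm7 (82.0 ± 8.30) above it and Mrs2 (63.4 ± 10.4) below. These neighbours lay within 1 SD of Cnnm2.

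**Figure D3:**
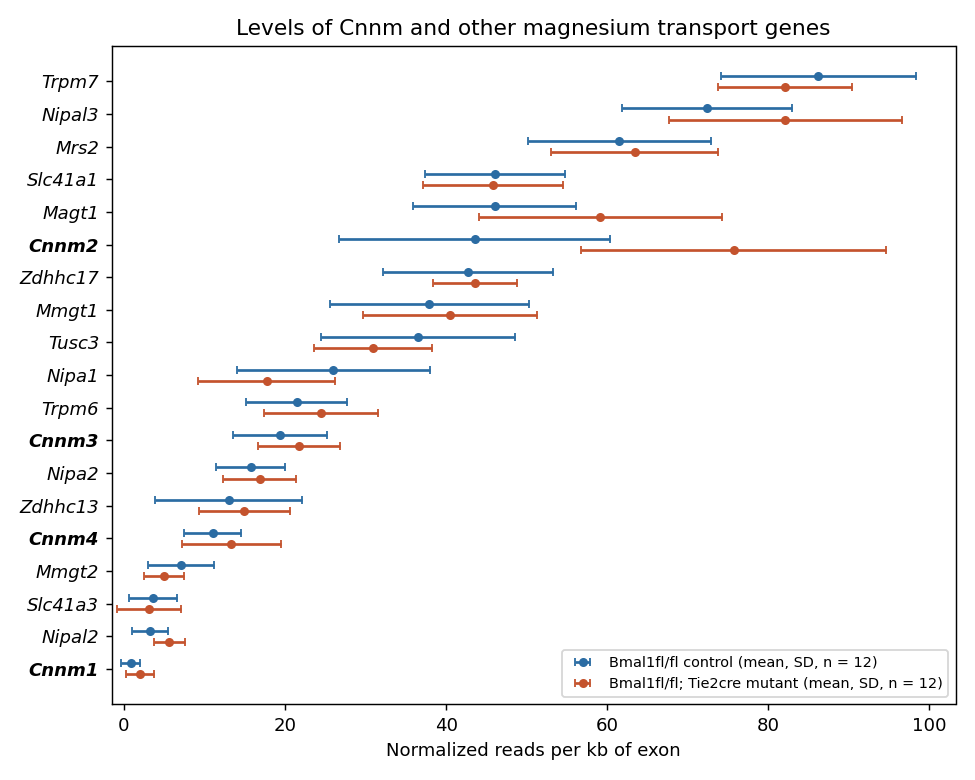
Normalized reads per kb of exon (horizontal axis) for the 4 Cnnm genes, in bold, and the 15 other magnesium transport genes that passed the filter, ordered by the control mean. Points are means of 12 libraries and bars 1 SD, and Cnnm2 stands at 43.6 in controls and 75.7 in mutants.

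None of the 15 other magnesium channels and transporters passed the genotype test (edgeR quasi-likelihood, 0 higher and 0 lower at an adjusted p under 0.05, lowest adjusted p 0.500), and DESeq2 also called 0. Over all genes edgeR called 0.155% higher and 0.116% lower, so a count of 0 in so short a list says nothing particular. At an unadjusted p under 0.05 there were 2 of 15, beside 6.95% of all genes, and both are named because they are so few. Magt1, a subunit of the oligosaccharyltransferase also described as a magnesium transporter, had a log2 fold change of 0.35 (SE 0.13), and Nipal2 one of 0.88 (SE 0.38) at 27.2 reads in controls. The log2 fold change was -0.07 (SE 0.08) for Trpm7, 0.18 (SE 0.09) for Nipal3, 0.05 (SE 0.10) for Mrs2 and -0.01 (SE 0.13) for Slc41a1. Of the 15 log2 fold changes 9 were above 0, with a median of 0.05 against 0.0033 over all genes tested.

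The genes of proteins known to bind CNNMs were expressed. The phosphatase genes Ptp4a1, Ptp4a2 and Ptp4a3 and the GTPase gene Arl15 had log2 fold changes of 0.04, 0.14, 0.15 and 0.08 (SE 0.17, 0.07, 0.13 and 0.12), with 0 of 4 called by edgeR at an adjusted p under 0.05 and 0 at an unadjusted one. With 0.155% and 0.116% of all genes called, counts of 0 in such short lists say nothing particular about them. Ptp4a2 had the highest level of them, 239 ± 28.1 reads per kb in controls and 265 ± 38.3 in mutants. Of 7 genes known for magnesium handling in the kidney only Egfr and Egf, the receptor and the growth factor, passed the filter, with means of 51.0 and 7.67 reads in controls and 41.6 and 5.83 in mutants, and 0 of 2 were called at either threshold. The claudin gene Cldn16 had 0 reads in all 24 libraries.

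The genes beside Cnnm2 had similar means in both genotypes. As3mt, an arsenic methyltransferase gene 20497 bp upstream, had means of 104 reads in controls and 103 in mutants, and Nt5c2, a nucleotidase gene 3125 bp downstream, 542.5 and 571. Beside Cnnm4 and Cnnm3, Lman2l had 171 and 154 reads and Ankrd39 54.1 and 39.3, with adjusted p-values of 0.862 and 0.754 in edgeR. A gene model within Cnnm4 on the same strand, Gm37909, had means of 11.0 and 14.8 reads, so that some Cnnm4 reads may have been counted there. Such a loss would raise the ratio of Cnnm3 to Cnnm4 per kb given above, and its size was not tested. An antisense model at the end of Cnnm3 had 0 reads in every library.

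The 5 genes whose log2 CPM ran most like that of Cnnm2 over the 24 libraries were Fam124b (r = 0.90), Glipr2 (r = 0.86), Mmp15, a membrane-bound matrix metalloproteinase (r = 0.86), Asb4, an adaptor of ubiquitin ligases (r = 0.83), and Bche, the butyrylcholinesterase gene (r = 0.81). These correlations share the genotype difference and the 2 libraries that stood apart, and within the 12 controls they were 0.72 to 0.86 and within the 12 mutants 0.55 to 0.81. Without both of those libraries they were 0.82 to 0.89 over the other 22, 0.65 to 0.83 within 11 controls and -0.09 (Bche) to 0.47 (Fam124b) within 11 mutants, so that the likeness within mutants rested largely on the library of ZT6. In controls Fam124b had means of 152.5, 38.5, 18.0, 5.50, 173 and 165 reads from ZT2 to ZT22, with the lowest value at ZT14 as in Cnnm2, and 158.5 to 392.5 in mutants. Mmp15 had 211.5 reads at both ZT10 and ZT14 in controls and 1006.5 at ZT2, and 902 to 1187.5 in mutants. In the library labelled mutant, ZT6, replicate 1 Fam124b had 27 reads and in the other mouse of that time point 377, as Cnnm2 had 184 and 541. The Fam124b mean of the ZT18 controls came from 253 reads in replicate 2, which stood apart, and 93 in the other mouse. Cnnm2 had 376 and 220 there.

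**Figure D4:**
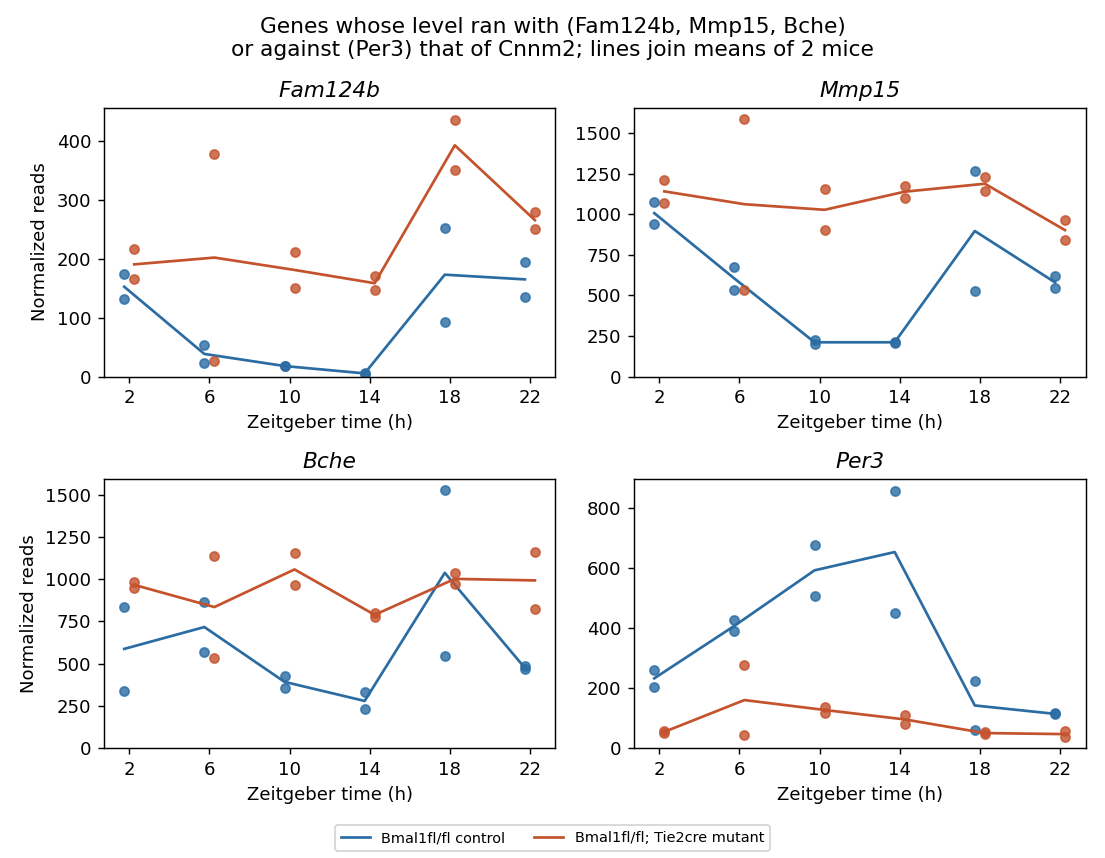
Normalized reads (vertical axes, each from 0) against zeitgeber time in hours for Fam124b, Mmp15, Bche and Per3, with 1 point for each mouse and lines through the means of 2 mice. In controls Fam124b and Bche were lowest and Per3 highest at ZT14, where Cnnm2 had its lowest control mean.

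The gene most opposite to Cnnm2 was Per3, a repressor gene of the clock (r = -0.88 over 24 libraries, -0.77 in controls and -0.81 in mutants, and -0.70 and -0.58 without the libraries that stood apart), which was looked up after the values were seen. Its control means were 653 reads at ZT14 and 113.5 at ZT22, and its mutant means 46.0 to 159.5. The highest of these mutant means, at ZT6, came from 277 reads in the library that stood apart and 42 in the other mouse. With Arntl, Cnnm2 had r = 0.62 in controls and 0.85 in mutants, and 0.60 and 0.67 without those libraries. These are descriptions over 11 or 12 libraries each, which share sorting, library preparation and time points.

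The nearest genes of the other Cnnm genes, again the 5 highest correlations out of all genes, were different ones. For Cnnm3 they were Pfkl, a phosphofructokinase gene (r = 0.75), Heatr5b (0.71), Pxn, which encodes the focal adhesion protein paxillin (0.70), Prpf8, a core spliceosome gene (0.69), and Med24, a Mediator subunit gene (0.68). For Cnnm4 they were Clk3, a kinase gene of splicing regulation (0.73), and Gm8355, Gm42702, Gm6517 and Pxdc1 (0.66 to 0.70). Within controls these values were 0.71 to 0.84 for Cnnm3 and 0.56 to 0.81 for Cnnm4, and within mutants 0.54 to 0.71 and 0.55 to 0.83. Without the libraries that stood apart they were 0.68 to 0.75 and 0.67 to 0.74 over the other 22. Opposite values were of like size, down to -0.73 for each gene (Morf4l1 for Cnnm3 and Nodal for Cnnm4, looked up after the values were seen). Between the Cnnm genes themselves r over the 24 libraries was 0.25 for Cnnm2 and Cnnm3, 0.12 for Cnnm2 and Cnnm4 and 0.07 for Cnnm3 and Cnnm4. Within controls these values were -0.03, -0.39 and -0.24, and within mutants 0.37, 0.50 and 0.32.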

How the data were processed

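RNA of sorted brain endothelial cells was made into stranded libraries. Reads were aligned to GRCm38 by the authors with STAR 2.5.3a (lanes merged with SAMtools 1.3.1, versions also in the submitters' processing notes), with Ensembl gene models, and PORT gave gene-level normalized counts. The deposited values are whole-number counts normalized by the authors, handled here as counts. Every whole number from 1 to 50 occurs in each library. PORT normalization removes the original depth, so counting error is only approximate.

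Groups, time points and replicate numbers came from the labels. The members and lists were chosen with earlier results of these data known. The filter asked for at least 5 reads in at least 6 libraries of either genotype. Tests of genotype (time point as a factor) and of rhythm differences used the quasi-likelihood method of edgeR 4.0.16 (R 4.3.3) after TMM scaling, with Benjamini-Hochberg adjustment over all genes. Reads per kb used the union of exons of GENCODE gene models on GRCm38. Rhythms used a Python 3.11.15 version of meta2d (NumPy 2.4.6). Tables were handled with pandas 2.3.3 and plots with matplotlib 3.10.9. Promoter sequences came from RefSeq, where 3 of 3 genes matched. Correlations used TMM log2 CPM with a prior count of 2.

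Named genes were the Cnnm genes, list genes past the threshold or otherwise the 4 with the highest level per kb, the 5 genes most like each Cnnm gene, the nearest filtered gene on each side, and Arntl. The steps were tested on simulated data with less spread than the common biological coefficient of variation fitted here, 42.4%. The simulated rhythms were larger than those of the Cnnm genes, so recovery of rhythms of their size was not tested. Alternatives were DESeq2 1.42.0, other scalings and filters, covariates, a replicate block, other rhythm tests (one with 100000 permutations of log2(count + 1)) and leaving out each library. The fit without both libraries that stood apart was chosen after seeing the data.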

Additional observations from a re-analysis of the deposited data

How the results depend on the processing

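Under the alternatives run, the log2 fold changes were 0.60 to 1.01 for Cnnm2, 0.08 to 0.40 for Cnnm3 and 0.05 to 0.49 for Cnnm4. Cnnm2 was chosen for its direction at every time point, so its kept sign is no support. The lowest values of Cnnm3 and Cnnm4 were smaller than their SEs of 0.16 and 0.24. Replicate numbers do not pair the mice (correlations of the replicate differences between genotypes were -0.0057 to 0.0218), and with a replicate block the values were 0.84, 0.18 and 0.27, with 26 genes higher and 19 lower. In the edgeR cosinor the block moved the Cnnm2 p in controls from 0.0381 to 0.0517 and changed no other call.

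The numbers of all genes called, 24 higher and 18 lower, moved to 89 and 52 with no filter, 3 and 4 with the i5 index, 59 and 40 with DESeq2, 56 and 36 without both libraries that stood apart, and 0 and 3 within ZT6 and ZT18. With the mitochondrial share 15 were higher, and within the other 16 libraries 11 were lower. Leaving out 1 library gave 11 to 41 higher and 12 to 27 lower. It gave 15 without the control of ZT10 replicate 1 or of ZT14 replicate 2, 37 without that of ZT18 replicate 2, 41 without the mutant of ZT6 replicate 1 and 11 without that of ZT6 replicate 2. The cause was not tested. No magnesium channel or transporter of the list was called under any of these, which says little for so short a list.

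For the Cnnm2 rhythm in controls, the p was 0.0381 in the edgeR cosinor, 0.0135 with the library number series, 0.0409 in the permuted cosinor, 0.217 on values rescaled by TMM, and 0.0137 to 0.444 without 1 library. For Cnnm4 in controls it was 0.0795, 0.112 with the series and 0.0940 with the replicate block in edgeR, 0.0148 in the permuted cosinor, 0.00746 on rescaled values, and 0.0106 to 0.0603 without 1 library. The rhythm results of Cnnm3, of the mutants, and of the difference between genotypes stayed above 0.05 under each alternative, and Cnnm3 stayed above Cnnm4 per kb. The totals after normalization do not give the original depth, so counting limits are approximate.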
